A study of Homo sapiens with 6 samples.

Results

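Phospholipid flippases are membrane ATPases of the P4 family. They move phospholipids, above all phosphatidylserine and phosphatidylethanolamine, from the outer or luminal leaflet of a membrane to its cytosolic leaflet, and so keep phosphatidylserine off the cell surface. Most of them leave the endoplasmic reticulum only in a complex with a small subunit of the CDC50 family, of which TMEM30A (CDC50A) is the widely expressed member. ATP9A and ATP9B are known as exceptions that do not need it. Loss of phosphatidylserine asymmetry marks dying cells for uptake.

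The genes described here are ATP8B1 with 7 other P4-ATPases (ATP8A1, ATP8B2, ATP8B4, ATP9A, ATP9B, ATP11A and ATP11B) and TMEM30A. They were taken by symbol: every deposited transcript that the authors' deposited table assigns to one of these 9 symbols was kept, and its TPM was summed per Ensembl gene ID. This gave 104 of 215170 transcripts and 10 of 63677 gene IDs, since ATP9B has a second ID. The set was chosen by a rule on TPM of HA-TAZ against control libraries, the contrast that is shown here, so the fold changes are given as a description, without p-values. TPM is an abundance per transcript length, stated as a share of all transcripts in a library, so TPM levels of different genes can be compared.

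The study compared total RNA of KMS27 cells, an established line of malignant plasma cells from human multiple myeloma, in 3 libraries labelled wild type and 3 libraries labelled HA-TAZ. HA-TAZ is the Hippo pathway coactivator TAZ, the product of WWTR1, with an HA peptide tag, and the series text calls it overexpressed. The titles of the wild type samples also carry HA, and whether those cells were given a construct, how TAZ was introduced, and whether the libraries come from separate cultures is not stated in the sources used here. The p-values below therefore set the group difference against the spread between these libraries, which may be technical. If it is, they do not cover differences between cultures. The 3 table columns that do not name TAZ were taken as wild type by elimination and are called control a, b and c.

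The transgene was seen in its own libraries. WWTR1 lay between 293 and 306 TPM in the HA-TAZ libraries and between 1.69 and 2.69 TPM in the controls. Of 9 plasma cell markers all reached a mean of 1 TPM, and their summed level was 2785 to 3217 TPM with HA-TAZ against 4270 to 4825 TPM in controls. None of 3 B cell and none of 3 T cell markers reached a mean of 1 TPM. Of the monocyte, epithelial and fibroblast markers, 3 in each list, 1, 1 and 2 did, and the summed level of each of these lists stayed under 5 TPM in every library. JCHAIN, the joining chain of secreted antibodies, made up most of that sum, with 2234 to 2618 TPM against 3617 to 4082 TPM. In TPM as deposited, 48.0% of the 22651 genes with a mean of at least 1 TPM had no overlap between the groups. The median log2 fold change on this scale was -0.27. JCHAIN and 6 other plasma cell markers were lower in HA-TAZ libraries without overlap on this scale. SDC1 overlapped at 89.7 to 95.0 against 79.8 to 93.1 TPM, and SLAMF7 was higher at 6.55 to 7.78 against 3.50 to 4.51 TPM. The part of these differences in the flippase results was not tested. The depth of each library was unknown, since TPM carries no read number. Libraries were rescaled by their median ratio over genes, and scaled TPM below means TPM after this step. It moved the median log2 fold change over all 22651 genes with a mean of at least 1 TPM from -0.27 to -0.03.

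ATP8B1, ATP11A and ATP9B were lower in HA-TAZ than in control libraries on both scales, and TMEM30A and ATP9A were higher on the scaled values. Of the 8 genes above 1 TPM, ATP8B1 had the largest difference, with 0.487 of its control level in scaled TPM, and ATP11A and ATP9B were at 0.791 and 0.759. TMEM30A was at 1.18 and ATP9A at 1.43 of their control levels. ATP8B2, ATP11B and ATP8A1 had overlapping scaled values. In RNA from whole cultures, fewer cells with a transcript and less of it per cell cannot be told apart.

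Of the 10 gene IDs, 8 had a mean of at least 1 TPM and entered the test over all genes (limma on log2(scaled TPM + 1), with a trend). The log2 fold changes below are HA-TAZ minus control on this scale, which understates changes of genes near 1 TPM. Past an adjusted p of 0.05 were 3 of the 8, ATP8B1 and ATP11A lower and TMEM30A higher. Over all genes tested, 7.29% passed, 4.67% higher and 2.63% lower. With any 1 of the 6 libraries left out, 0 of the 8 passed. The groups did not overlap in scaled TPM for 5 of the 8, against 38.5% of all genes, and in TPM as deposited for 6 of the 8, against 48.0%. Since the choice of the genes used this contrast, nothing is read from these counts. The median log2 fold change of the 8 was -0.14, beside -0.03 over all genes tested and 0.06 over the 11666 protein-coding genes among them.

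**Figure D1:**
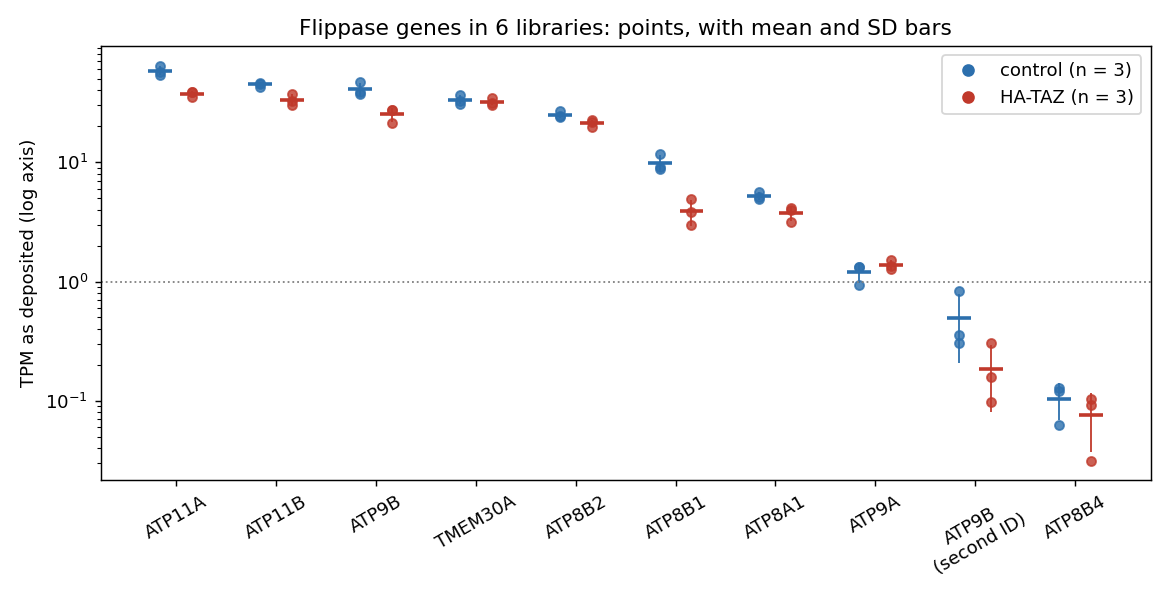
TPM as deposited, on a log axis, of the 10 flippase gene IDs in the 6 libraries, ordered by control mean. Points are libraries, horizontal lines means and vertical lines SD (n = 3 per group; left out where mean minus SD falls to 0 or below), and the dotted line is 1 TPM. ATP8B1 stands out by its gap, with HA-TAZ libraries between 2.97 and 4.88 TPM and controls between 8.71 and 11.6 TPM.

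In control libraries the genes spanned a wide range of levels. ATP11A led with 58.4 ± 5.27 TPM (SD, n = 3), followed by ATP11B with 44.8 ± 1.87 TPM and ATP9B with 41.0 ± 5.27 TPM, whose ranges overlapped. TMEM30A was at 33.4 ± 2.95 TPM and ATP8B2 at 24.8 ± 1.52 TPM. ATP8B1 came next with 9.81 ± 1.59 TPM, above ATP8A1 with 5.21 ± 0.362 TPM and ATP9A with 1.19 ± 0.229 TPM. Apart from the pair ATP11B and ATP9B, no neighbours among the 8 tested genes overlapped in the controls. In HA-TAZ libraries more neighbours overlapped. ATP11A, ATP11B and TMEM30A lay at 37.4 ± 2.25, 33.3 ± 3.70 and 32.0 ± 2.12 TPM (SD, n = 3 each), each overlapping the next. ATP9B at 25.2 ± 3.42 TPM overlapped ATP8B2 at 21.3 ± 1.45 TPM, and ATP8B1 at 3.89 ± 0.960 TPM overlapped ATP8A1 at 3.75 ± 0.533 TPM. In TPM summed over all transcripts, ATP8B1 and ATP8A1 were thus apart in the controls and not in the HA-TAZ libraries. These sums include non-coding transcripts, and the order differed for coding transcripts alone. Summed coding TPM in controls had a mean of 16.9 for ATP11A, below 33.0 for ATP11B, 30.4 for ATP9B and 33.4 for TMEM30A. In coding TPM, ATP8B1 at 2.81 to 4.47 overlapped ATP8A1 at 2.68 to 3.40 in the controls.

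ATP8B1 (ENSG00000081923, minus strand, chr18:57646426-57803315 in GRCh38) encodes a flippase of the apical membrane whose inherited loss causes familial intrahepatic cholestasis. Its level was 2.97, 4.88 and 3.81 TPM in HA-TAZ 1, 2 and 3 and 11.6, 9.09 and 8.71 TPM in control a, b and c. Every HA-TAZ library was below every control. The log2 fold change was -0.90 (SE 0.14), and over 16 alternative settings it kept its sign, from -1.15 with TPM as deposited to -0.51 with only coding transcripts summed. Leaving out 1 library at a time gave -1.01 to -0.78, and none of these 6 fits passed the threshold for ATP8B1.

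Most of the ATP8B1 TPM lay in transcripts that encode no protein. Estimated reads, which are not divided by transcript length, ran the other way among the transcripts named below. A typical library held 641 such reads of the coding ENST00000283684.4. The non-coding ENST00000588255.1 and ENST00000589147.1 had 34.8 and 34.2. In controls, coding transcripts made up 36.8 ± 5.16% (SD, n = 3) of ATP8B1 TPM and non-coding transcripts 63.2 ± 5.16%. In HA-TAZ libraries the coding share was 46.2 ± 3.32% (SD, n = 3). The summed coding TPM was 1.47, 2.10 and 1.75 in HA-TAZ 1, 2 and 3 and 4.47, 2.81 and 3.56 in control a, b and c, without overlap. In scaled TPM the coding part stood at 0.605 and the non-coding part at 0.418 of its control mean, so both parts were lower and the non-coding part by more.

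3 ATP8B1 transcripts had a mean of at least 1 TPM. The retained intron transcript ENST00000588255.1 was at 0.535, 1.74 and 1.29 TPM in HA-TAZ 1, 2 and 3 and at 3.29, 3.15 and 2.58 TPM in control a, b and c. The processed transcript ENST00000589147.1, a type with no annotated open reading frame, was at 0.750, 0.894 and 0.690 TPM against 3.27, 2.90 and 2.57 TPM. The coding transcript ENST00000283684.4 was at 1.07, 1.46 and 1.38 TPM against 2.65, 1.86 and 2.29 TPM. None of the 3 overlapped between the groups, and ENST00000589147.1 had the tightest values within them. In scaled TPM the groups did not overlap for 32.4% of all transcripts tested. Nothing is read from this count, since the genes were chosen with this contrast. The log2 fold changes of the 3 ATP8B1 transcripts were -0.72 (SE 0.22), -0.95 (SE 0.10) and -0.31 (SE 0.12) in that order. Means in the authors' deposited table imply 34.8, 34.2 and 641 estimated counts for them in a typical library, so the non-coding transcripts rest on few reads.

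The sequences at the 3 prime splice site of that intron are shown because they differ between the annotated retained intron transcript and the spliced coding transcript of ATP8B1. RNA not yet spliced would carry the same boundary from intron to exon. Each line gives 60 bases upstream of the exon in capitals and the first 40 bases of the exon in lower case, 5′ to 3′ on the minus strand, from GENCODE 29 (GRCh38). In the retained intron transcript the capitals are intron and end in the acceptor AG, at chr18:57688468-57688567. In the coding transcript the capitals are the preceding exon, at chr18:57691807-57691866, joined to the same 40 bases at chr18:57688468-57688507. The deposited table holds the coding transcript in version 4 and the retained intron transcript in the version printed.
ATP8B1 ENST00000588255.1, intron retained: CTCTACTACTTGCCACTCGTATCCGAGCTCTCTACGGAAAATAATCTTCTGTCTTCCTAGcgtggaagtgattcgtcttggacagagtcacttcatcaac
ATP8B1 ENST00000283684.9, spliced: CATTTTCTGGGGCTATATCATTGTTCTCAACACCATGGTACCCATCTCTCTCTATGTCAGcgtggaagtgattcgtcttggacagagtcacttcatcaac
Of the 489 bases of the retained intron transcript, 161 are intronic in the coding transcript, which is only part of that intron. The remaining bases are shared, so reads can be assigned to it by the quantification without touching the intron.

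Other genes overlap ATP8B1. The antisense genes AC027097.1 and AC027097.2 had HA-TAZ means of 4.94 and 5.59 TPM and control means of 6.18 and 9.28 TPM. The small nuclear RNA copy RNU6-742P had a mean of 1.36 TPM with HA-TAZ and of 4.31 TPM in controls. The libraries were stranded, but the sources used here do not say if transcripts were quantified by strand. Values of ATP8B1 and of these genes are therefore uncertain relative to each other.

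ATP11A (ENSG00000068650, plus strand, chr13:112690329-112887168 in GRCh38) encodes a phosphatidylserine flippase of the plasma membrane. Its level was 34.8, 38.7 and 38.8 TPM in HA-TAZ 1, 2 and 3 and 64.2, 53.9 and 57.1 TPM in control a, b and c, without overlap. The log2 fold change was -0.33 (SE 0.06), with -0.63 to -0.11 over the alternatives and no change of sign. Coding transcripts carried 28.96 ± 1.63% (SD, n = 3) of ATP11A TPM in controls and 33.8 ± 1.58% in HA-TAZ libraries. On the scaled values the coding part had a log2 fold change of -0.11 and the non-coding part -0.48. The difference of ATP11A in summed TPM was thus mostly one of its non-coding transcripts, which rest on few reads. The authors' deposited table implied 24.6 to 350 estimated counts for each non-coding transcript with a mean of at least 1 TPM. It implied 6111 for the coding ENST00000375630.2 and 1645 for ENST00000283558.8. No ATP11A transcript had a sleuth q-value under 0.05 in that table.

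Among these was ENST00000495930.1, a retained intron transcript at 2.04, 2.17 and 2.52 TPM in HA-TAZ 1, 2 and 3 and at 5.57, 3.49 and 5.08 TPM in control a, b and c. The processed transcripts ENST00000459011.2 and ENST00000419448.1 also did not overlap, with log2 fold changes of -0.58 (SE 0.19) and -0.60 (SE 0.20). A further processed transcript, ENST00000466946.1, had -0.62 (SE 0.34), with overlap in scaled TPM but not in TPM as deposited. 1 retained intron transcript went the other way: ENST00000479193.1 had a log2 fold change of 0.31 (SE 0.13). The main coding transcript ENST00000375630.2 was at 8.63, 10.3 and 7.73 TPM against 15.6, 13.0 and 10.4 TPM, with a log2 fold change of -0.21 (SE 0.13) and overlap after scaling. ENST00000283558.8, which has no type in GENCODE 29, had -0.23 (SE 0.14). The remaining 4 tested ATP11A transcripts lay between -0.32 and 0.11. Among them the retained intron transcript ENST00000459908.1, at -0.13 (SE 0.11), did not overlap on either scale.

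The same window is printed for the intron of ENST00000495930.1, on the plus strand. Its capitals are intron and end in AG, at chr13:112873513-112873612. In the coding transcript the capitals are the preceding exon, at chr13:112871741-112871800, joined to chr13:112873573-112873612. The deposited table holds this coding transcript in version 2.
ATP11A ENST00000495930.1, intron retained: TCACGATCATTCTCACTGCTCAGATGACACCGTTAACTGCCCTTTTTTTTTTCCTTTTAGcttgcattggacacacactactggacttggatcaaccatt
ATP11A ENST00000375630.6, spliced: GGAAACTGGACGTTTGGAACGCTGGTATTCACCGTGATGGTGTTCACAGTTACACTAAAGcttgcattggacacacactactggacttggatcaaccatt
Of the 564 bases of ENST00000495930.1, 294 are intronic in the coding transcript, which is only part of that intron. The authors' deposited table implies 77.7 estimated counts for ENST00000495930.1 in a typical library.

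ATP9B (ENSG00000166377, plus strand, chr18:79069285-79378287 in GRCh38) encodes a P4-ATPase of the trans-Golgi network. ATP9B RNA was at 21.3, 27.3 and 27.1 TPM in HA-TAZ 1, 2 and 3 and at 47.1, 37.5 and 38.5 TPM in control a, b and c, without overlap. The log2 fold change was -0.39 (SE 0.09), with -0.68 to -0.31 over the alternatives. Unlike ATP8B1 and ATP11A, it was mostly coding in type, with 74.1 ± 0.851% (SD, n = 3) of TPM in coding transcripts in controls and 76.7 ± 2.49% in HA-TAZ libraries. The coding part had a log2 fold change of -0.34 and the non-coding part -0.50.

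The lower ATP9B sum came mainly from 1 coding transcript with a wide spread. ENST00000458297.2 was at 2.66, 12.9 and 6.26 TPM in HA-TAZ 1, 2 and 3 and at 21.3, 14.6 and 14.9 TPM in control a, b and c. Its log2 fold change was -1.04 (SE 0.44), and its q-value in the authors' deposited table was not under 0.05. ENST00000586722.1, also coding, was at 9.19, 3.92 and 9.34 TPM against 7.86, 7.76 and 7.98 TPM. HA-TAZ 2 was the highest HA-TAZ library for the first of these transcripts and the lowest for the second. The coding transcripts ENST00000426216.2 and ENST00000307671.7 had log2 fold changes of 0.07 (SE 0.12) and 0.10 (SE 0.22). The retained intron transcript ENST00000490210.2 did not overlap, with 0.711 to 0.891 TPM in HA-TAZ libraries against 1.37 to 1.60 TPM, and the processed transcript ENST00000591464.1 had -0.17 (SE 0.21). The second ATP9B gene ID was below 1 TPM in every library, with 0.0976 to 0.304 TPM in HA-TAZ libraries against 0.308 to 0.831 TPM.

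ATP11B encodes a flippase of endosomes and the trans-Golgi network. Its values were 30.003, 37.3 and 32.5 TPM in HA-TAZ 1, 2 and 3 and 46.4, 45.4 and 42.8 TPM in control a, b and c. The groups did not overlap in TPM as deposited, but they did after scaling, where the log2 fold change was -0.13 (SE 0.06). Coding transcripts made up 73.7 ± 3.01% (SD, n = 3) of its TPM in controls. The coding part had a log2 fold change of -0.08 and the non-coding part -0.28. Its 7 tested transcripts lay between -0.29 and 0.09 with overlap in scaled TPM. The highest, the coding ENST00000323116.5, had a log2 fold change of 0.03 (SE 0.08).

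ATP8A1 encodes a phosphatidylserine flippase of recycling endosomes. Its values were 3.14, 4.13 and 3.97 TPM in HA-TAZ 1, 2 and 3 and 4.89, 5.13 and 5.60 TPM in control a, b and c. As with ATP11B, the gap in deposited TPM closed after scaling, with a log2 fold change of -0.15 (SE 0.12). Its only tested transcript, the coding ENST00000264449.10, had -0.08 (SE 0.11).

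ATP8B2 encodes a phosphatidylcholine flippase of the plasma membrane. ATP8B2 RNA was at 19.7, 22.6 and 21.5 TPM in HA-TAZ 1, 2 and 3 and at 24.1, 26.6 and 23.8 TPM in control a, b and c. After scaling the groups overlapped, with a log2 fold change of 0.07 (SE 0.08), and the sign depended on the scale: it was -0.21 with TPM as deposited and -0.02 as a share without the most abundant genes. Within ATP8B2 the coding and the non-coding part differed in sign, at 0.29 and -0.34. The main coding transcript ENST00000368489.3 hardly varied in deposited TPM, at 11.6, 11.8 and 11.7 against 11.0, 11.9 and 11.7 TPM. In scaled TPM its groups did not overlap, and its log2 fold change was 0.29 (SE 0.10). The other coding transcript, ENST00000368487.3, had 0.21 (SE 0.12). The retained intron transcripts ENST00000368490.2 and ENST00000514107.1 had -0.23 (SE 0.24) and -0.32 (SE 0.38), and ENST00000341822.2, with no type in GENCODE 29, had -0.23 (SE 0.12). Coding transcripts thus made up 58.5 ± 2.92% (SD, n = 3) of ATP8B2 TPM in controls and 69.1 ± 5.09% in HA-TAZ libraries.

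ATP9A encodes a P4-ATPase of endosomes. ATP9A RNA was at 1.35, 1.52 and 1.28 TPM in HA-TAZ 1, 2 and 3 and at 1.31, 1.34 and 0.928 TPM in control a, b and c. The deposited values overlapped and the scaled values did not, with a log2 fold change of 0.29 (SE 0.11) and 0.12 to 0.49 over the alternatives. Nearly all of its TPM was in the coding transcript ENST00000338821.5, whose log2 fold change was 0.28 (SE 0.11). ATP8B4, a P4-ATPase known from myeloid cells, ranged from 0.0317 to 0.104 TPM with HA-TAZ and from 0.0634 to 0.129 TPM in controls, too low to be compared. Its highest transcript was the retained intron ENST00000561385.1, with a mean of 0.0589 TPM.

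TMEM30A (ENSG00000112697, minus strand, chr6:75252924-75284968 in GRCh38), the shared subunit, was at 31.5, 34.3 and 30.1 TPM in HA-TAZ 1, 2 and 3 and at 36.6, 32.8 and 30.7 TPM in control a, b and c. These ranges overlapped. In scaled TPM the groups did not overlap, at 35.2 ± 1.29 and 29.8 ± 0.626 (SD, n = 3 each). The log2 fold change was 0.23 (SE 0.05). The direction depended on the scaling, since TPM as deposited gave -0.06. TMEM30A passed the threshold in 4 of 16 alternatives, and not with upper-quartile scaling or with shares taken without the most abundant genes. All 4 of its transcripts were coding in type. The main one, ENST00000230461.6, had a log2 fold change of 0.28 (SE 0.08), and ENST00000475111.2 and ENST00000370050.5 had 0.17 (SE 0.26) and 0.03 (SE 0.11).

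**Figure D2:**
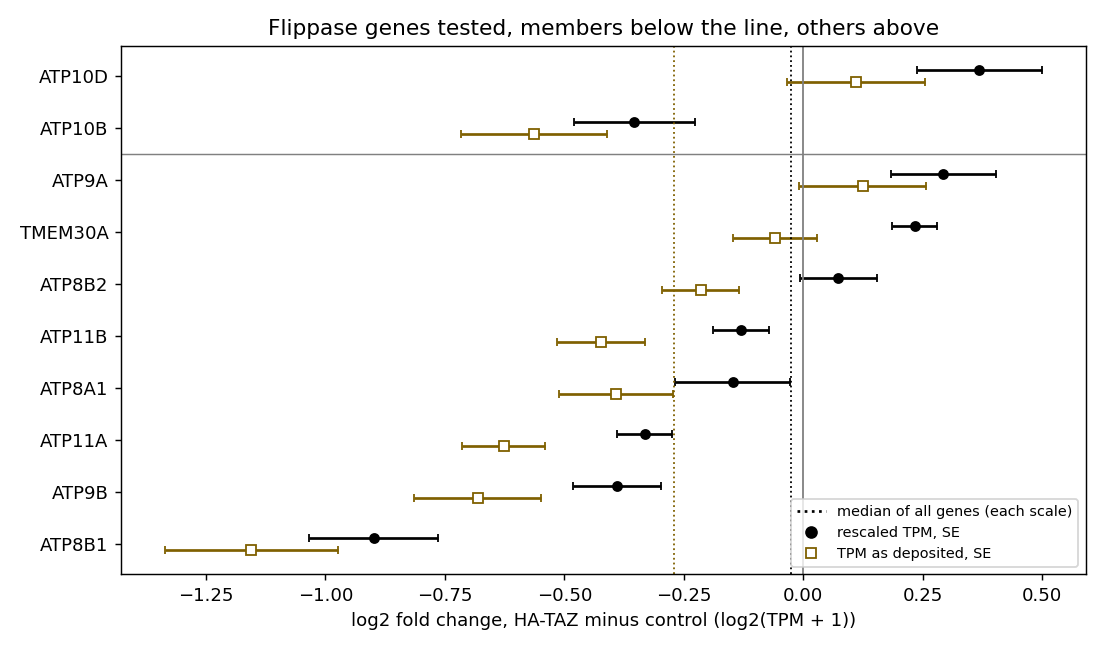
Log2 fold change (HA-TAZ minus control) with its standard error on log2(TPM + 1), for the 8 tested flippase genes below the grey line and 2 other P4-ATPases above it. Filled circles are rescaled TPM and open squares TPM as deposited, and dotted lines mark the median of all genes on each scale. Rescaling moves every gene to the right, and TMEM30A and ATP8B2 change sign between the scales.

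Across all of these genes, 37 transcripts had a mean of at least 1 TPM. 1 of the 37 passed the adjusted threshold over all transcripts, ENST00000589147.1 of ATP8B1, where 0.534% of 57448 transcripts passed. The choice of the genes used this contrast at this level too, and nothing is read from this call or from the counts that follow. Of the 19 coding transcripts, 6 were lower and 13 higher in HA-TAZ, with a median log2 fold change of 0.09, beside a median of 0.10 over all 23340 coding transcripts tested. Of the 16 non-coding transcripts, 15 were lower and 1 higher, with a median of -0.30, beside -0.12 over all 28098 non-coding transcripts. Over all transcripts tested, 36.5% of the coding and 64.8% of the non-coding ones were lower. The scaled values did not overlap for 5 of the 19 coding and 8 of the 16 non-coding transcripts, against 32.4% of all transcripts. The 2 transcripts with no type in GENCODE 29 were both lower.

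For 6 genes, coding and non-coding parts could both be summed to at least 1 TPM, and in all 6 the coding part had the higher log2 fold change. The gap ran from 0.09 in ATP8A1 to 0.63 in ATP8B2 and was 0.48 in ATP8B1. The same order held for 78.7% of the 7295 genes of the whole table with both parts, with a median gap of 0.23. A coding part above the non-coding part was therefore common in these libraries. GENCODE 29 held a type for 84.7% of the deposited transcripts.

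**Figure D3:**
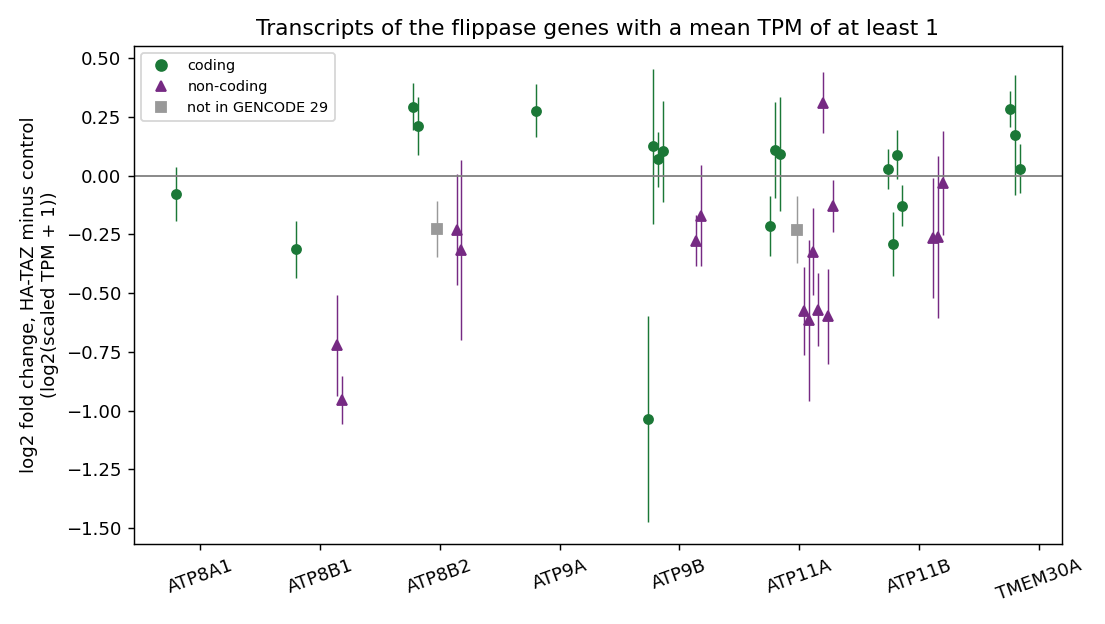
Log2 fold change (HA-TAZ minus control) with its standard error on log2(scaled TPM + 1), for the 37 tested transcripts by gene. Green circles are coding, purple triangles non-coding and grey squares transcripts not in GENCODE 29. All but 1 of the 16 triangles lie below 0, and the circles lie on both sides of it.

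The authors' deposited table, a test of each transcript by sleuth on estimated counts, gave statistics for 62 of the 104 transcripts. Its q-value was under 0.05 for 6 of them, beside 5.68% of its 109487 transcripts, 4.08% higher and 1.6% lower. The 3 higher ones were the main coding transcripts of TMEM30A, ATP8B2 and ATP9A, with effects in the authors' deposited table of 0.223, 0.242 and 0.372 on the natural log scale. The 3 lower ones in the authors' deposited table were the coding ENST00000283684.4 of ATP8B1 at -0.326, ENST00000589147.1 of ATP8B1 at -1.09 and the retained intron ENST00000490210.2 of ATP9B at -0.350. The table rests on the same libraries and is no second measurement. Since the choice of the genes used this contrast, nothing is read from these q-values or from their count.

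P4-ATPase genes were also summed within each library, the 8 described here with ATP8A2, ATP8B3, ATP10A, ATP10B and ATP10D, which is not the whole family. The HA-TAZ sum was 136 ± 13.3 TPM and the control sum 197 ± 13.8 TPM (SD, n = 3 each), and 150 ± 8.72 and 176 ± 2.67 in scaled TPM. Neither pair of ranges overlapped. The ratio of this sum to TMEM30A does not depend on the scaling of a library. It was 3.85, 4.30 and 4.64 in HA-TAZ 1, 2 and 3 and 5.81, 5.75 and 6.13 in control a, b and c, so every HA-TAZ library had less summed TPM of these P4-ATPases per TMEM30A TPM than every control. The ratio sets unlike RNA side by side, since the sum includes non-coding transcripts and all TMEM30A transcripts were coding in type. The sum also includes ATP9A and ATP9B, which do not need TMEM30A. Most of it comes from genes chosen with this contrast, so the ratio is a description only.

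A gene's share of the sum is likewise free of the scaling, though it depends on which genes are summed. ATP8B1 held 2.83 ± 0.445% in HA-TAZ and 4.97 ± 0.450% in control libraries (SD, n = 3 each), without overlap. ATP9B held 18.6 ± 0.939% and 21.1 ± 1.32%, also without overlap. ATP8B2 was the larger share in HA-TAZ, with 15.7 ± 0.513% against 12.7 ± 1.36%, as was ATP9A with 1.02% against 0.606%. ATP11A, ATP11B and ATP8A1 had overlapping shares, with means of 27.6%, 24.5% and 2.75% in HA-TAZ and 29.7%, 22.9% and 2.66% in controls. Of the other P4-ATPases, ATP10D took 4.70 ± 0.375% of the sum in HA-TAZ and 2.98 ± 0.361% in controls, without overlap. ATP10B went the other way, with 1.30 ± 0.170% and 1.57 ± 0.127%. These shares include non-coding transcripts.

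**Figure D4:**
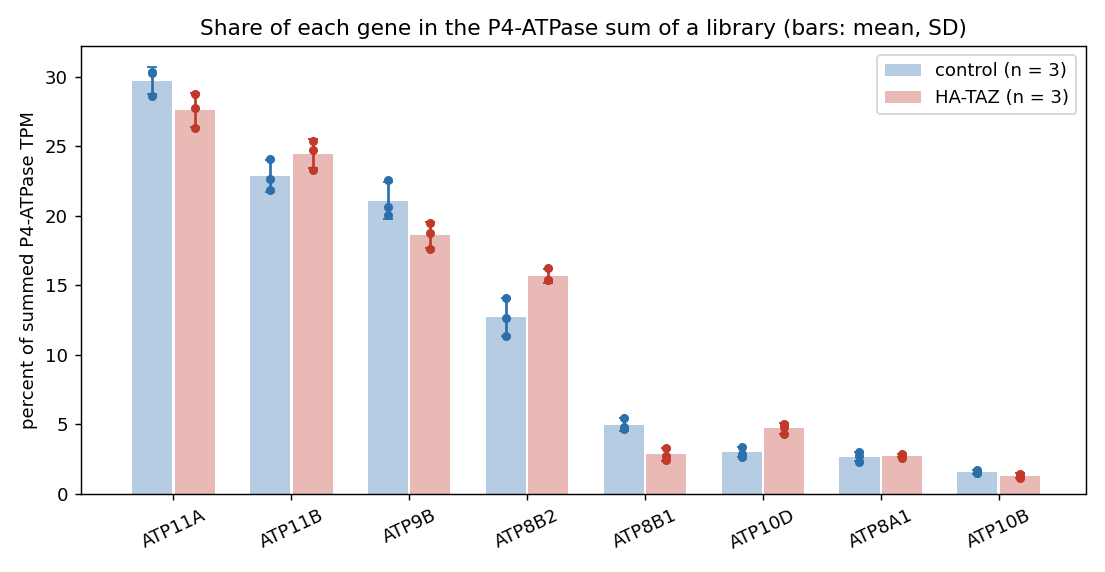
Share of each gene in the summed TPM of 13 P4-ATPases in a library, in percent, for genes with at least 1% in controls. Bars are means, error bars SD and points libraries (n = 3 per group). ATP8B1 goes from a control mean of 4.97% to 2.83% in HA-TAZ libraries, and ATP8B2 from 12.7% to 15.7%.

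The other genes of phospholipid transport were taken from lists that do not contain the genes above. Their p-values come from the test over all genes. These lists too were chosen with earlier results of these data known, and the p-values carry that limit. Of 7 other P4-ATPases and CDC50 subunits, 2 were tested and 0 passed (limma), and both had an unadjusted p under 0.05, as did 6959 of all 22651 genes (30.7%). Both are P4-ATPases of the ATP10 group. ATP10D and ATP10B had 0.37 (SE 0.13, limma adjusted p = 0.125) and -0.35 (SE 0.13, limma adjusted p = 0.127). ATP10D passed in 2 of 16 alternatives. These were only coding transcripts (0.49, limma adjusted p = 0.00588) and those with their own library factors (0.40, limma adjusted p = 0.0168). ATP10B passed in 1 of 13, the sum of only transcripts with the authors' statistics (limma adjusted p = 0.0416).

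Scramblases move phospholipids between leaflets in both directions without ATP. Of 19 listed, 14 were tested, with a median log2 fold change of 0.10. VMP1 and ANO5 passed, both higher, and none passed lower. VMP1, an endoplasmic reticulum scramblase needed for autophagy, was at 129, 142 and 122 TPM in HA-TAZ 1, 2 and 3 and at 98.0, 103 and 91.1 TPM in control a, b and c. Its log2 fold change was 0.72 (SE 0.07, limma adjusted p = 0.0104). VMP1 lost the call without HA-TAZ 1 and without HA-TAZ 2. The rise of VMP1 was not seen in its coding transcripts, which gave 0.06 when summed alone (limma adjusted p = 0.529) and -0.09 with their own library factors, so the VMP1 call belongs to its other transcripts. ANO5, an anoctamin known from muscle, rose by a log2 fold change of 0.44 (SE 0.06, limma adjusted p = 0.0255). Among the fits with 1 library left out it passed only without control a, and in TPM as deposited its groups overlapped.

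ABC transporters export lipids toward the outer leaflet. Of 8 listed, 4 were tested, with a median log2 fold change of -0.11. ABCA1, which hands cholesterol and phospholipid to apolipoprotein A1, fell. Its values were 4.99, 5.77 and 5.39 TPM in HA-TAZ 1, 2 and 3 and 9.23, 9.49 and 8.54 TPM in control a, b and c, and its log2 fold change was -0.40 (SE 0.07, limma adjusted p = 0.0394). ABCC1, a drug and lipid exporter, rose by 0.37 (SE 0.05, limma adjusted p = 0.0167), while its deposited TPM overlapped between the groups. ABCA1 lost its call without any 1 of the 6 libraries, and ABCC1 kept its call only without control c.

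Of 11 genes that make, convert or exchange aminophospholipids, 10 were tested and 1 passed, with a median log2 fold change of 0.12. PTDSS1, which makes phosphatidylserine from phosphatidylcholine, was at 172, 187 and 172 TPM in HA-TAZ 1, 2 and 3 and at 172, 163 and 157 TPM in control a, b and c. It rose by 0.41 (SE 0.04, limma adjusted p = 0.0112) on the scaled values. With 1 library left out PTDSS1 passed only without control a and without control c, and it did not pass with TPM as deposited. Over the alternatives the limma adjusted p ran from 0.00709 to 0.529 for VMP1, 0.00127 to 0.316 for ANO5, 0.0017 to 0.13 for ABCA1, 0.0021 to 0.411 for ABCC1 and 0.00816 to 0.217 for PTDSS1.

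No gene among 5 flippase partners (ARL1, MON2, DOP1A, DOP1B and SNX3; limma) and none of 9 tested other P-type ATPases passed, with 0 and 3 of them at an unadjusted p under 0.05, which 30.7% of all genes had. The medians were -0.02 and 0.10. SNX3, a sorting nexin of endosomes, was the most abundant partner with means of 72.0 TPM (HA-TAZ) and 89.5 TPM (control), with a log2 fold change of -0.0037 (SE 0.08). ATP2A2, the calcium pump of the endoplasmic reticulum, was the most abundant of the other P-type ATPases at 114 and 134 TPM, with 0.07 (SE 0.05) on the scaled values and -0.23 with TPM as deposited. Over all 61 listed genes, 44 were tested, with a median log2 fold change of 0.08. Past the threshold were 4 higher and 1 lower, beside 4.67% higher and 2.63% lower over all genes tested.

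Among tested genes with a gene symbol, DAB2, LINC00113, LINC01717, RNU6-680P and LINC02617 matched the pattern of ATP8B1 over the 6 libraries most closely. Genes without a symbol were not ranked. The measure was the root mean square difference of log2(scaled TPM + 1) after each gene's mean was subtracted, which was 0.0946 for DAB2 and 0.112 for LINC02617. DAB2, an endocytic adaptor and the only protein-coding gene of the 5, was at 0.659, 1.60 and 1.001 TPM in HA-TAZ 1, 2 and 3 and at 4.59, 2.76 and 2.69 TPM in control a, b and c. As in ATP8B1, HA-TAZ 1 was the lowest and control a the highest library of DAB2. Unlike the others of the 5, DAB2 did not pass the threshold over all genes. The measure rewards any gene with a difference of the same size between the groups.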

How the data were processed

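Total RNA of KMS27 cells was sequenced in 6 libraries after depletion of ribosomal RNA, per the labels' protocols. The authors deposited TPM per transcript. The submitters' processing notes name kallisto 0.46.0, sleuth 0.30.0 and GRCh37, without saying which step each served. The authors' comparison, a Wald test by sleuth, gives a p-value and a q-value per transcript, with effects and means on a natural log scale, per the file headers of the deposited table. The annotation release and the use of strand are not given in the sources used here. All value columns were used.

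TPM was summed per gene ID, and median-of-ratios factors were taken from the 21512 tested genes above 0 in every library (0.866 to 0.967 in HA-TAZ, 1.06 to 1.21 in controls). Scaled TPM is TPM divided by this factor. Features at a mean of 1 TPM or more were tested on log2(scaled TPM + 1) with limma 3.58.1 (R 4.3.3), with an intensity trend, two-sided, and Benjamini-Hochberg adjustment over all features at 0.05. The script was tested on simulated data. GENCODE 29 gave transcript types and sequences on GRCh38. Tables were made with pandas 2.3.3, figures with matplotlib 3.10.9.

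The genes and lists were chosen with earlier results of these data known. Named were all members, with their transcripts at a mean TPM of at least 1 and the highest of each. Also named were the listed genes past the threshold, the most abundant gene of each list, and the 5 genes most like ATP8B1. Those 5 were sought among tested genes with a gene symbol. Alternatives changed scaling, pseudocount, filter, trend, libraries and transcripts summed. A few genes of the lists are not reported here.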

Additional observations from a re-analysis of the deposited data

How the results depend on the processing

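Depth per library was unknown, and 3 libraries a group limit precision. Without any 1 library, 0 of the 8 flippase genes, 0 to 3 listed genes, 115 to 433 of all genes and 12 to 91 of all transcripts passed (limma, adjusted p under 0.05). The calls with all libraries were 3, 5, 1652 and 307. TPM as deposited gave 3329 genes and 120 transcripts, no filter 691 and 108, and no trend 758 and 156. Of the flippase genes, 0 passed with no filter and 1 with no trend. A mean TPM of at least 5 gave 8 listed genes and 1655 transcripts, and the share without genes above 1% of TPM gave 192 transcripts. Summing only transcripts with the authors' statistics gave 9 listed genes. Summing only coding transcripts, an alternative added after seeing the data, tested 10527 genes in place of 22651, so its counts are not on the same base: it gave 3443 genes (32.7% of those tested, against 7.29%), 5 flippase genes and 14 listed genes. ATP11A was not among these 5. Higher genes made up 64.0% of the gene calls, 7.84% with TPM as deposited, 36.8% with the share without abundant genes, 87.4% with only coding transcripts and 50.1% with those and their own factors. Among genes past the threshold, the sign turned to -0.059 for TMEM30A with TPM as deposited and to -0.086 for VMP1 with coding transcripts and their own factors. TMEM30A also lost its call with upper-quartile scaling (0.21), the share without abundant genes (0.14) and coding transcripts with their own factors (0.086). Among named genes not past it, ATP8B2 turned to -0.21 with TPM as deposited and -0.023 with the share, and ATP2A2 to -0.23, to -0.03 with the share and to -0.03 with coding transcripts and their own factors. The authors' deposited table had 6220 transcripts at a q-value under 0.05 and 3343 under 0.01. The cause of these shifts was not tested. No paired analysis was possible because the control columns cannot be tied to numbered samples.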
